A study of Mus musculus with 22 samples.

Results

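The transcription factors En1, Twist1, Twist2, Prrx1, Prrx2, Tbx15, Tbx18, Runx1, Runx2 and Scx were followed in fibroblasts sorted from mouse back skin during the first days of stretch by an implanted expander. They were picked by name as factors of the dermal and connective tissue lineage, and all 10 were found by Ensembl identifier among the 55414 genes of the count table. Every mouse had the same operation, in which a path was opened under the skin from near the tail to the neck. In the EXP mice a swelling hydrogel was left there, and the CTRL mice, operated in the same way, received none. Skin was taken on day 1 (4 CTRL and 5 EXP libraries), day 2 (3 and 3) or day 4 (4 and 3). Sorted cells were live, lacked CD31, CD45, CD117 and EpCAM, and carried CD34 and PDGFRα. The labels give no strain, age or sex and do not say whether a library is a single mouse or a pool, so the p-values below measure the spread between libraries.

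These factors mark where and what kind of mesenchyme a cell came from. Engrailed 1 (En1) is a homeobox factor whose embryonic expression marks the fibroblast lineage that deposits most scar tissue in the back skin of mice. The Twist proteins are basic helix-loop-helix (bHLH) factors that pair with widely expressed E proteins, and Twist2 (Dermo1) was first described in dermis. The paired-related homeobox proteins Prrx1 and Prrx2 act in limb, craniofacial and skin mesenchyme. Among the T-box factors, Tbx15 is known for patterning dorsal and ventral skin, and Tbx18 marks dermal papilla and mural cell progenitors. The Runt family proteins bind DNA with their partner CBFβ, Runx1 in blood and hair follicle mesenchyme and Runx2 as the factor that drives bone formation. Scleraxis (Scx) is a bHLH factor of tendon and ligament.

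Library totals ran from 21461294 to 30210204 counts. Levels are given in CPM, each gene's share of the library's reads, on totals scaled by TMM, which corrects for libraries dominated by a few genes. Differences are log2 fold changes of EXP against CTRL from edgeR's quasi-likelihood test over 17554 genes, with Benjamini-Hochberg adjustment, and a gene is called at an adjusted p under 0.05. Of 9 immune markers, Ptprc, Adgre1 and Itgam reached at most 7 counts and were at 0 in 16, 17 and 15 libraries, while Csf1r reached 158 CPM, Cd3e 28.9 CPM and Cd68 24.9 CPM. The neutrophil gene S100a8 was called higher on all 3 days (log2 fold changes from 6.18 to 6.47, at most 4.74 CPM), Cd68 on days 1 and 2 and Cd3e on day 4, and Csf1r was called lower on day 1 and Cd74 on days 2 and 4. The immune markers summed to between 38.1 and 168 CPM. The 9 keratinocyte markers summed to at most 49.9 CPM. Adipocyte markers were called higher in EXP on days 2 and 4 and were not called on day 1. On day 1 the 6 genes summed to between 1.82 and 24.9 CPM in CTRL and 0.835 and 9.66 CPM in EXP, and the 5 tested had a median log2 fold change of -4.60 and were not called (edgeR adjusted p 0.0502 to 0.166). On day 4 they summed to between 0.545 and 2.23 CPM in CTRL and 43.6 and 502 CPM in EXP. All 5 tested were called higher on that day, against 12.8% of all genes. On day 2 those sums were 0.249 to 3.13 and 8.03 to 88.9 CPM, with 2 called higher, against 7.72% of all genes. The adipocyte genes Plin1 and Lep were at 0 in every day 2 and day 4 CTRL library. The 8 pericyte and smooth muscle markers summed to between 28.3 and 129 CPM. Of them 0, 1 and 1 were called higher and 2, 1 and 0 lower on days 1, 2 and 4. The 6 endothelial markers summed to at most 11.6 CPM, and of the 5 tested 0, 1 and 2 were called higher and 0 lower. Of all genes 13.9%, 7.72% and 12.8% were called higher and 14.7%, 5.71% and 9.66% lower. The part of immune, adipocyte, pericyte, smooth muscle and endothelial RNA in the results below was not tested. Of the 7 fibroblast markers, 4, 5 and 3 were called lower on days 1, 2 and 4, against 14.7%, 5.71% and 9.66% of all genes. Cd34 was among them on days 1 and 2, while Pdgfra was called higher on each day.

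A set of 192 genes that rise and fall together, apart from the groups, placed 7 libraries on a high side and 15 on a low side. The high side held day 1 CTRL replicates 1 to 3, day 1 EXP replicates 1 and 2, and day 4 CTRL replicates 3 and 4. The labels do not say what set them apart. On day 4 every EXP library was on the low side, so split and expander could not be told apart for the 2 high-side CTRL libraries. Comparing within a side was possible for 3 CTRL against 2 EXP libraries on day 1 and for 2 against 3 on day 4. In the latter comparison only 1 gene of the whole table was called. Without TMM, the median log2 fold change of all genes was 0.21, 0.49 and 0.36 on days 1, 2 and 4, against 0.02, 0.02 and 0.03 with it. The share of calls that were higher went from 48.6% to 66.2% on day 1, from 57.5% to 90.5% on day 2 and from 57.0% to 80.8% on day 4.

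The factors differed widely in level. Per kilobase of annotated exon, Tbx15 (mean over the 22 libraries 15.7 CPM per kb), Prrx1 (14.1) and Twist1 (10.7) led, followed by Twist2 (8.38) and Runx1 (5.95). Prrx2 (3.07), En1 (2.04) and Tbx18 (1.42) were lower, and Runx2 averaged 0.422 CPM per kb. Scx averaged 0.0625 CPM per kb. Its mean of 0.1255 CPM was near the detection limit of 3 counts per library, which is 0.0993 to 0.140 CPM depending on the library. The other 9 factors were detected in every library and passed the filter on low counts. Because RNA came from pools of sorted cells, fewer cells expressing a factor and less of its RNA per cell cannot be told apart.

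**Figure D1:**
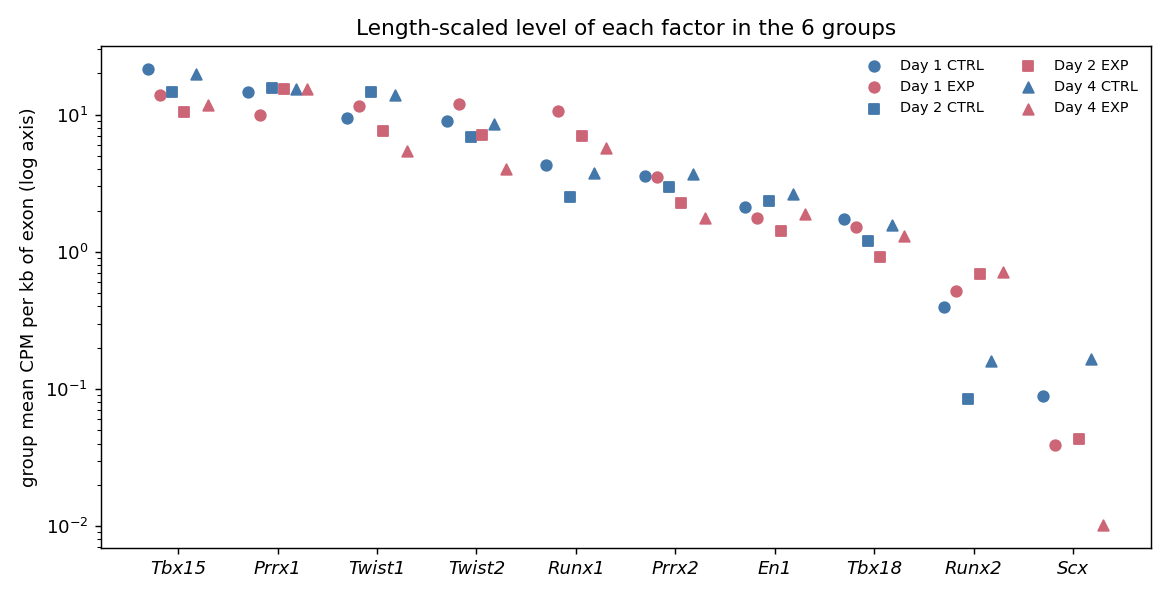
Group means of the 10 factors in CPM per kilobase of exon, on a log axis, ordered by their mean over all libraries; circles, squares and triangles are days 1, 2 and 4, blue is CTRL and red is EXP, and the day 2 CTRL mean of Scx, which is 0, is not drawn. Tbx15 and Prrx1 are at the top, Runx2 and Scx at the bottom, and Runx2 shows the widest spread of means between groups among the 9 tested factors.

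On day 1, 3 of the 9 tested factors were called, with Runx1 higher and Prrx1 and Tbx15 lower in EXP. Over all genes 28.6% were called on that day. On day 2, 2 of 9 were called, Runx1 and Runx2, both higher, against 13.4% of all genes. On day 4, 5 of 9 were called, against 22.5% of all genes: Runx2 was higher, and Twist1, Twist2, Prrx2 and Tbx15 were lower. The median log2 fold change of the 9 factors was -0.03, -0.38 and -0.48 on the 3 days, and that of all genes was 0.02, 0.02 and 0.03. En1 and Tbx18 were called on no day.

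**Figure D2:**
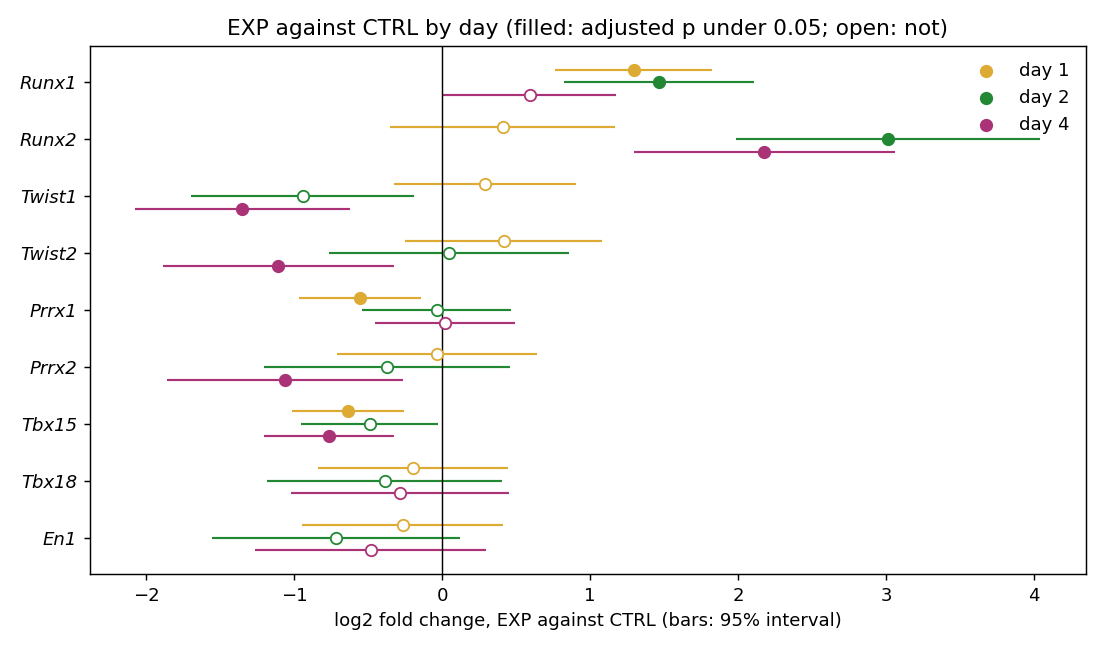
Log2 fold change of EXP against CTRL for the 9 tested factors on days 1, 2 and 4, with bars for the 95% confidence interval and filled points for an adjusted p under 0.05. Runx1 and Runx2 have their points to the right of 0 on all days, with 1.29, 1.46 and 0.59 for Runx1 and 0.41, 3.01 and 2.18 for Runx2, while Tbx15 lies to the left at -0.64, -0.49 and -0.77.

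The Runt factors were the members called higher in EXP than in CTRL. Runx1 (ENSMUSG00000022952) was at 46.3, 55.0, 55.1 and 51.4 CPM in the day 1 CTRL libraries and at 205, 69.9, 109, 124 and 129 CPM in the day 1 EXP libraries. Every EXP library lay above every CTRL library, and EXP replicate 1 stood highest. The log2 fold change was 1.29 (adjusted p 0.000827, SE 0.26). On day 2 Runx1 was at 27.8, 35.2 and 27.9 CPM in CTRL and at 85.4, 75.3 and 90.0 CPM in EXP, again without overlap, with a log2 fold change of 1.46 (adjusted p 0.0041, SE 0.31). On day 4 the CTRL libraries had 27.8, 38.0, 56.5 and 59.6 CPM and the EXP libraries 92.1, 50.7 and 62.6 CPM. These ranges overlapped, and the difference of 0.59 (adjusted p 0.133, SE 0.28) did not pass. The 2 highest day 4 CTRL values were those of the high-side libraries. Within the high side on day 1 the log2 fold change of Runx1 was 1.36 (adjusted p 0.0419), and within the low side on day 4 it was 1.05 (adjusted p 0.189).

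Runx2 (ENSMUSG00000039153) was higher in EXP than in CTRL on days 2 and 4, when its CTRL means were below that of day 1. Within EXP no change of Runx2 over the days was called (joint edgeR adjusted p 0.644). Its EXP means were 4.61, 6.06 and 6.34 CPM on days 1, 2 and 4. On day 1 it was at 4.49, 2.37, 4.08 and 2.95 CPM in CTRL and 4.93, 2.95, 6.90, 4.97 and 3.32 CPM in EXP, with overlapping ranges and a difference of 0.41 (adjusted p 0.431, SE 0.37). On day 2 CTRL had 1.15, 0.418 and 0.674 CPM, from 8 to 23 counts, and EXP had 8.12, 5.35 and 4.70 CPM. The log2 fold change of 3.01 (adjusted p 0.000715, SE 0.50) corresponds to 8.07-fold and had a 95% interval of 1.98 to 4.04. On day 4 CTRL had 2.13, 0.944, 1.55 and 0.996 CPM and EXP 10.4, 5.66 and 2.93 CPM, a log2 fold change of 2.18 (adjusted p 0.00194, SE 0.42). EXP and CTRL did not overlap on either of these days, which holds for 39.3% of all genes on day 2 and 25.5% on day 4 (23.9% on day 1). Within the low side on day 4 the difference was 2.05 (adjusted p 0.197). Between the arms, the day 2 CTRL mean of 0.746 ± 0.369 CPM (n = 3, SD) was the lowest of the 6 groups and the day 4 EXP mean of 6.34 ± 3.80 CPM (n = 3, SD) the highest. In the order of group means only day 1 CTRL and day 4 CTRL were neighbours without overlap.

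The antisense gene Runx2os1 shares 5.87% of the exon bases of Runx2 in the GENCODE M21 annotation and reached 32 counts at most. It rose on day 2 as well (2.67, adjusted p 0.0336). The files do not state whether reads were counted by strand, so reads in the shared stretch cannot be assigned to either gene. Elsewhere in the family, Runx1 and Runx2 shared no run of bases longer than 26 in their transcripts, against reads of 150 bases. Runx3, the third gene of the family and a member of the partner list below, was at 0.804 ± 0.556 CPM (n = 3, SD) in day 2 CTRL and 1.84 ± 0.93 CPM (n = 3, SD) in day 2 EXP and was called on no day (adjusted p 0.353, 0.139 and 0.372). It is named here after its values were seen.

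Runt genes are transcribed from a distal and a proximal promoter. Since both genes were called higher on day 2, the start windows that the RefSeq table holds for them (GRCm38.p6, 250 bases before to 50 after the start, both on the minus strand) are shown, chr16:92826025-92826324 for the distal start of Runx1 and chr17:44814578-44814877 for Runx2. Capitals mark the letters TGTGGT or TGCGGT, the Runt core, on either strand; on the printed strand TGTGGT reads as ACCACA.
Runx1: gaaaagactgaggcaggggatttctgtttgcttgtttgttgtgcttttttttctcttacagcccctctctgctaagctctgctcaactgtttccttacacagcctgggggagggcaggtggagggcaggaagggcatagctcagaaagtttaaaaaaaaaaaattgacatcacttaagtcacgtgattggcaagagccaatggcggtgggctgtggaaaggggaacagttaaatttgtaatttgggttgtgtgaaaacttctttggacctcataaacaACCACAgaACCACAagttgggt
Runx2: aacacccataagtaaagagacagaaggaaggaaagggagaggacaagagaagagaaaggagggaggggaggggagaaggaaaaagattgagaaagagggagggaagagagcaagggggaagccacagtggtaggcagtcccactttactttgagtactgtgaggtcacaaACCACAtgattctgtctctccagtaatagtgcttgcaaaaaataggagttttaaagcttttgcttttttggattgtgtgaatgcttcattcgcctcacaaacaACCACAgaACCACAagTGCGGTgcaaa

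The Runx1 window held TGTGGT 2 times and the Runx2 window 3 times, with TGCGGT 1 time in Runx2. Just downstream of both starts the windows shared the 22-base run aaacaaccacagaaccacaagt, which carries the paired matches. Among all 32851 windows of this length in the table, 16.8% held TGTGGT, 1.81% held it at least 2 times and 6.45% held TGCGGT. In the Runx2 window the 2 matches of the bHLH letters CANNTG overlapped 3 of the 4 Runt cores, whereas in the Runx1 window the 3 CANNTG matches lay apart from them. A second Runx1 window, at the proximal start (chr16:92697280-92697579), held neither Runt core. The windows of En1, Twist1, Twist2, Prrx1, Prrx2 and Tbx18 also held neither. These are matches of letters in a reference sequence and say nothing about binding in these cells.

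**Figure D3:**
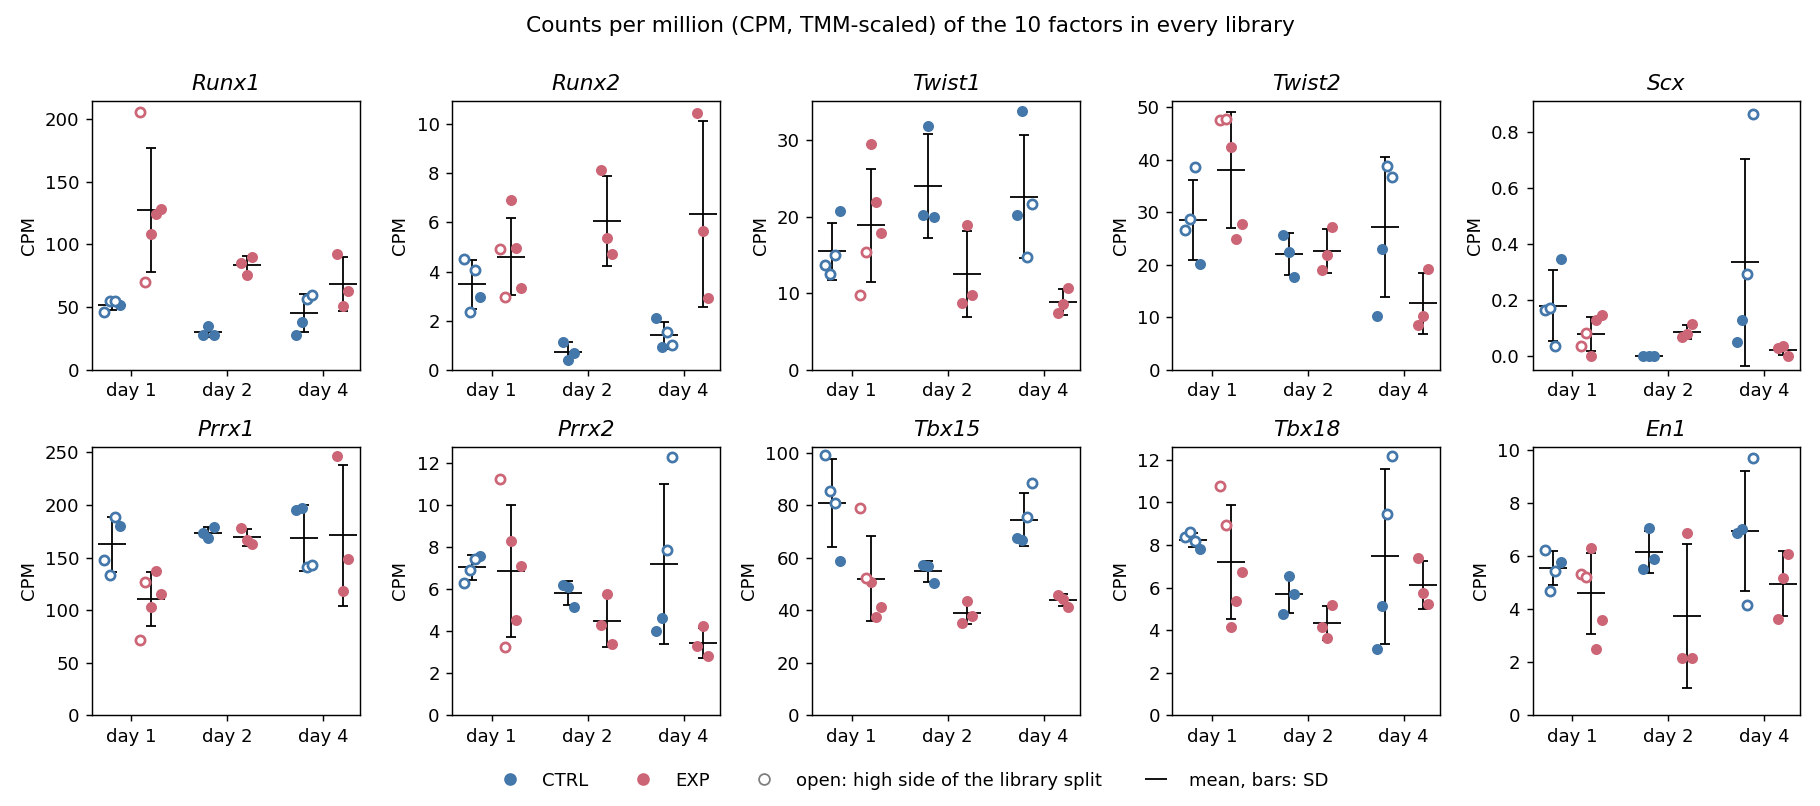
CPM of each factor in the 22 libraries by day, blue for CTRL and red for EXP, with a dash at the group mean and bars of 1 SD; open points are the 7 high-side libraries. Runx1 in EXP lies above CTRL on days 1 and 2 and Runx2 on days 2 and 4, while Twist1 and Tbx15 in EXP lie below CTRL on days 2 and 4. Open points sit at the top of day 4 CTRL for Twist2, Prrx2, Tbx15 and Tbx18.

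Both Twist factors fell on day 4. Twist1 (ENSMUSG00000035799) was at 13.6, 12.5, 14.96 and 20.7 CPM in day 1 CTRL and 9.75, 15.4, 29.4, 21.9 and 17.9 CPM in day 1 EXP, with overlap and no call (0.29, adjusted p 0.499, SE 0.30). On day 2 CTRL had 20.2, 31.9 and 19.9 CPM and EXP 8.71, 18.9 and 9.79 CPM. The groups did not overlap, yet the difference of -0.94 (adjusted p 0.0897, SE 0.36) did not pass. It did pass with the split as a covariate (-0.94, adjusted p 0.0364) and by limma voom (-0.99, adjusted p 0.0136). On day 4 CTRL had 20.2, 33.7, 14.8 and 21.6 CPM and EXP 7.38, 8.54 and 10.6 CPM, all 3 below every CTRL library. The log2 fold change was -1.35 (adjusted p 0.0106, SE 0.35). It was -1.23 (adjusted p 0.0613) without day 4 EXP replicate 1 and -1.61 (adjusted p 0.135) within the low side of the split. Without day 2 EXP replicate 2, the highest of its group, the day 2 difference was -1.38 (adjusted p 0.0297).

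Twist2 (ENSMUSG00000007805) showed no call on day 1 or day 2. Its day 1 levels were 26.6, 28.7, 38.7 and 20.2 CPM in CTRL and 47.6, 47.7, 42.4, 24.9 and 27.7 CPM in EXP (0.42, adjusted p 0.353, SE 0.32). On day 2 they were 25.7, 22.5 and 17.8 CPM in CTRL and 18.9, 21.9 and 27.2 CPM in EXP, with a difference of 0.05 (95% interval -0.76 to 0.85, adjusted p 0.957). On day 4 Twist2 was at 10.3, 23.0, 38.9 and 36.8 CPM in CTRL and at 8.48, 10.3 and 19.2 CPM in EXP, a fall of -1.11 (adjusted p 0.0387, SE 0.37). The ranges overlapped on day 4, and the 2 upper CTRL values were those of the high-side libraries. With the split as a covariate the day 4 difference was -0.60 (adjusted p 0.191) and within the low side -0.40 (adjusted p 0.677). Leaving out day 4 CTRL replicate 3 or 4, or EXP replicate 1 or 2, also ended the call, with adjusted p up to 0.184. An antisense transcript, Gm29100, shares 46.5% of the exon bases of Twist2 in M21. It reached at most 47 counts, where Twist2 reached 1363, and was called on no day. As with Runx2os1, the strand setting is not known, so reads in the shared stretch cannot be assigned to either gene.

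Scx (ENSMUSG00000034161) had 1 to 9 counts in day 1 CTRL, 0 to 4 in day 1 EXP, 0 in all 3 day 2 CTRL libraries, 2 to 3 in day 2 EXP, 1 to 20 in day 4 CTRL and 0 to 1 in day 4 EXP. Nearly all of these are at or close to the 3-count limit, so no fold change is given. Exact two-sided permutation tests of the CPM gave p of 0.151 on day 1, 0.1 on day 2, the smallest that 3 against 3 libraries allow, and 0.171 on day 4. The highest library, day 4 CTRL replicate 4 at 0.866 CPM, was on the high side of the split. In M21 Scx lies inside Bop1, a ribosome biogenesis gene on the opposite strand that was at 18.7 to 65.8 CPM and was called higher on each day, though the exons share no base.

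Of the Prrx factors, Prrx1 was called on day 1 and Prrx2 on day 4. A change of the expander effect with the day was called for neither (joint edgeR adjusted p 0.334 and 0.352). Prrx1 (ENSMUSG00000026586), the more abundant of the pair, was at 148, 134, 189 and 180 CPM in day 1 CTRL and 71.5, 127, 103, 137 and 115 CPM in day 1 EXP. Only EXP replicate 4 reached into the CTRL range, and the log2 fold change was -0.56 (adjusted p 0.0407, SE 0.20). On day 2 the arms were close, with 173, 169 and 179 CPM in CTRL and 178, 167 and 163 CPM in EXP, a difference of -0.04 with a 95% interval of -0.54 to 0.47. On day 4 CTRL had 196, 197, 141 and 143 CPM and EXP had 247, 118 and 149 CPM, so that the EXP libraries spanned the CTRL range (0.02, 95% interval -0.45 to 0.49). The day 1 call was lost when a library was left out in 6 of 9 cases, namely CTRL replicates 1, 3 and 4 and EXP replicates 1, 3 and 5, with adjusted p up to 0.119. Within the high side it was -0.69 (adjusted p 0.143).

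Prrx2 (ENSMUSG00000039476), a gene described in fetal and wounded skin, showed no call on days 1 and 2. On day 1 it was at 6.26, 6.91, 7.41 and 7.55 CPM in CTRL, and the 5 EXP libraries were wider, at 11.2, 3.23, 8.28, 4.52 and 7.07 CPM (-0.03, adjusted p 0.949, SE 0.32). On day 2 it was at 6.17, 6.11 and 5.17 CPM in CTRL and 4.29, 5.78 and 3.38 CPM in EXP (-0.38, adjusted p 0.586, SE 0.40). Day 4 CTRL libraries had 4.01, 4.63, 7.84 and 12.3 CPM and day 4 EXP libraries 3.27, 4.24 and 2.82 CPM, with overlap at the lower CTRL end. The difference of -1.06 (SE 0.38) had an adjusted p of 0.0499, and it was lost in 5 of 7 fits that each left out a library (all but those without CTRL replicate 1 or 2). It was -0.79 (adjusted p 0.182) with the split as a covariate and -0.33 (adjusted p 0.647) within the low side.

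Tbx15 fell on days 1 and 4. Tbx15 (ENSMUSG00000027868) was at 99.0, 85.4, 80.8 and 58.7 CPM in day 1 CTRL and 78.7, 52.3, 50.6, 37.6 and 41.1 CPM in day 1 EXP, a log2 fold change of -0.64 (adjusted p 0.0116, SE 0.18). The ranges overlapped through the lowest CTRL library, which was the 1 CTRL library of that day on the low side, and the highest EXP library, which was on the high side. Day 2 levels were 57.2, 56.7 and 50.3 CPM in CTRL and 35.2, 43.7 and 37.9 CPM in EXP, without overlap, and the difference of -0.49 (adjusted p 0.149, SE 0.22) did not pass. Day 4 levels were 67.3, 66.6, 75.7 and 88.2 CPM in CTRL and 45.8, 44.2 and 41.3 CPM in EXP, again without overlap (-0.77, adjusted p 0.0141, SE 0.21). With the split as a covariate the values were -0.47 (adjusted p 0.0163) on day 1 and -0.52 (adjusted p 0.0378) on day 4. Within a side they were -0.47 (adjusted p 0.218) and -0.62 (adjusted p 0.202), and without day 1 CTRL replicate 1 the day 1 adjusted p was 0.0521. Without TMM the log2 fold changes were -0.46, -0.03 and -0.43 and were not called, or -0.67, -0.52 and -0.79 relative to the median of all genes on each day.

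Tbx18 (ENSMUSG00000032419) ranged from 3.10 to 12.2 CPM over all libraries and was called on no day, with differences of -0.20 (adjusted p 0.671, SE 0.31), -0.39 (adjusted p 0.546, SE 0.38) and -0.29 (adjusted p 0.597, SE 0.36). The 4 day 1 CTRL libraries were close together, at 7.82 to 8.60 CPM, and the day 1 EXP libraries ran from 4.14 to 10.8 CPM. In day 4 CTRL the 2 low-side libraries had 3.10 and 5.15 CPM and the 2 high-side libraries 9.43 and 12.2 CPM, so the spread within that group exceeded every difference between the arms. Without day 4 CTRL replicate 4 the day 4 difference was 0.05. An opposite-strand transcript, D030062O11Rik, shares 20.6% of the exon bases of Tbx18 in M21 and reached at most 18 counts. Here too, reads in the shared stretch cannot be assigned to either gene. Neither T-box pair nor the Twist and Prrx pairs shared a transcript run longer than 23 bases.

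En1 (ENSMUSG00000058665) did not differ between the arms beyond the test's threshold. It was at 6.22, 4.70, 5.44 and 5.79 CPM in day 1 CTRL and 5.35, 5.21, 6.32, 2.52 and 3.61 CPM in day 1 EXP. Day 2 levels were 5.53, 7.05 and 5.89 CPM in CTRL and 2.18, 6.89 and 2.16 CPM in EXP, where 2 EXP libraries lay below all CTRL libraries and the remaining one inside their range. Day 4 levels were 6.87, 7.04, 4.15 and 9.70 CPM in CTRL and 3.65, 5.17 and 6.07 CPM in EXP. The differences were -0.27 (95% interval -0.95 to 0.41), -0.72 (-1.56 to 0.12) and -0.48 (-1.27 to 0.30), with adjusted p of 0.575, 0.256 and 0.371. Without day 2 EXP replicate 2 the day 2 difference was -1.51 (adjusted p 0.0147).

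Whether the expander effect changed with the day was tested in the same fit. For Runx2 it did (adjusted p 0.0175), and so it did for Twist1 (adjusted p 0.048), against 8.82% of all genes. The effect on Runx2 was larger on day 2 than on day 1 by 2.60 (adjusted p 0.0236, SE 0.60) and on day 4 than on day 1 by 1.77 (adjusted p 0.0391, SE 0.55). The effect on Twist1 was lower on day 4 than on day 1 by a difference of -1.64 (adjusted p 0.0227, SE 0.46). For Twist2 the joint test did not pass (adjusted p 0.107), while the single contrast of day 4 with day 1 did (-1.52, adjusted p 0.0445, SE 0.49). Of all genes, 2.97% were called for the day 2 minus day 1 contrast and 13.3% for day 4 minus day 1. The Twist1 result was lost when a library was left out in 16 of 22 cases, all but those without day 1 CTRL replicate 4, day 1 EXP replicate 1 or 2, day 2 EXP replicate 2, day 4 CTRL replicate 3 or day 4 EXP replicate 3, with adjusted p up to 0.0965. The Runx2 result was kept in all 22. Runx1, Prrx1, Prrx2, Tbx15, Tbx18 and En1 did not pass (adjusted p 0.283 to 0.962).

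Within the EXP arm, Twist2 was the single member that changed over the days in the joint test (adjusted p 0.0153), against 14.3% of all genes. Its mean went from 38.1 ± 11.0 CPM (n = 5, SD) on day 1 to 22.7 ± 4.16 CPM (n = 3, SD) on day 2 and 12.7 ± 5.75 CPM (n = 3, SD) on day 4, a log2 change of -1.59 (adjusted p 0.00565, SE 0.37) from day 1 to day 4. Twist1 (-1.09, adjusted p 0.0272), Runx1 (-0.89, adjusted p 0.029) and Prrx1 (0.63, adjusted p 0.0438) were also called between these 2 days, where 19% of all genes were called. Day 1 EXP replicates 1 and 2 were on the high side of the split and every day 2 and day 4 EXP library on the low side, so day and split are partly confounded in this arm. With group means removed, Pearson r with the mean of the 192 split genes was 0.822 for Twist2, -0.62 for Prrx1, -0.432 for Twist1 and 0.419 for Runx1. Twist2 was at 47.6 and 47.7 CPM in those high-side libraries and at 42.4, 24.9 and 27.7 CPM in the low-side libraries of day 1 EXP. In the CTRL arm 0 members passed the joint test by edgeR, by which 0.291% of all genes were called, and 3 had an unadjusted edgeR p under 0.05. By DESeq2 and by limma voom 1 member was called. That edgeR share does not apply to these methods, and voom called more of all genes, as given below. Runx2 came closest in CTRL (adjusted p 0.052), and its fall from 3.47 ± 0.98 CPM (n = 4, SD) on day 1 to 0.746 ± 0.369 CPM (n = 3, SD) on day 2 was called as a single contrast (-2.21, adjusted p 0.0466; 0.296% of all genes). Day cannot be told apart from a processing batch, since the labels record none.

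In a list of dimer partners, inhibitors and co-repressors of bHLH and Runt factors, only falls were called. The list held the E proteins that pair with Twist and Scx, the Id proteins that capture E proteins, and the Runt partner Cbfb. It also held the co-repressors of the Groucho (Tle) and Runx1t1 kind, Runx3, Hand2 and Hdac9. Of its 17 genes 16 were tested, and 0 were called higher on any day. On days 1, 2 and 4 respectively, 3, 3 and 9 were called lower, against 14.7%, 5.71% and 9.66% of all genes. The list's median log2 fold change was -0.26, -0.45 and -1.11. The E protein gene Tcf4 fell on all days (-1.22, -0.89 and -1.51; adjusted p 0.000233, 0.0239 and 0.000554), from 290 ± 63.4 CPM (n = 4, SD) in CTRL to 102 ± 45.7 CPM (n = 3, SD) in EXP on day 4. Id3 fell on day 2 (-1.36, adjusted p 0.00373) and day 4 (-1.57, adjusted p 0.000834), where it was at 498 ± 77.6 CPM (n = 4, SD) in CTRL and 168 ± 80.2 CPM (n = 3, SD) in EXP. Id1 fell on day 4 (-1.95, adjusted p 0.00395), the co-repressor gene Runx1t1 on all 3 days (-1.26, -1.19 and -1.17; adjusted p 0.000639, 0.0118 and 0.00732) and Tle2 on day 1 (-0.84, adjusted p 0.00399). Cbfb, singled out after its values were seen because Runx1 and Runx2 both bind it, was called on no day (0.42, 0.41 and -0.75; adjusted p 0.452, 0.628 and 0.245).

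**Figure D4:**
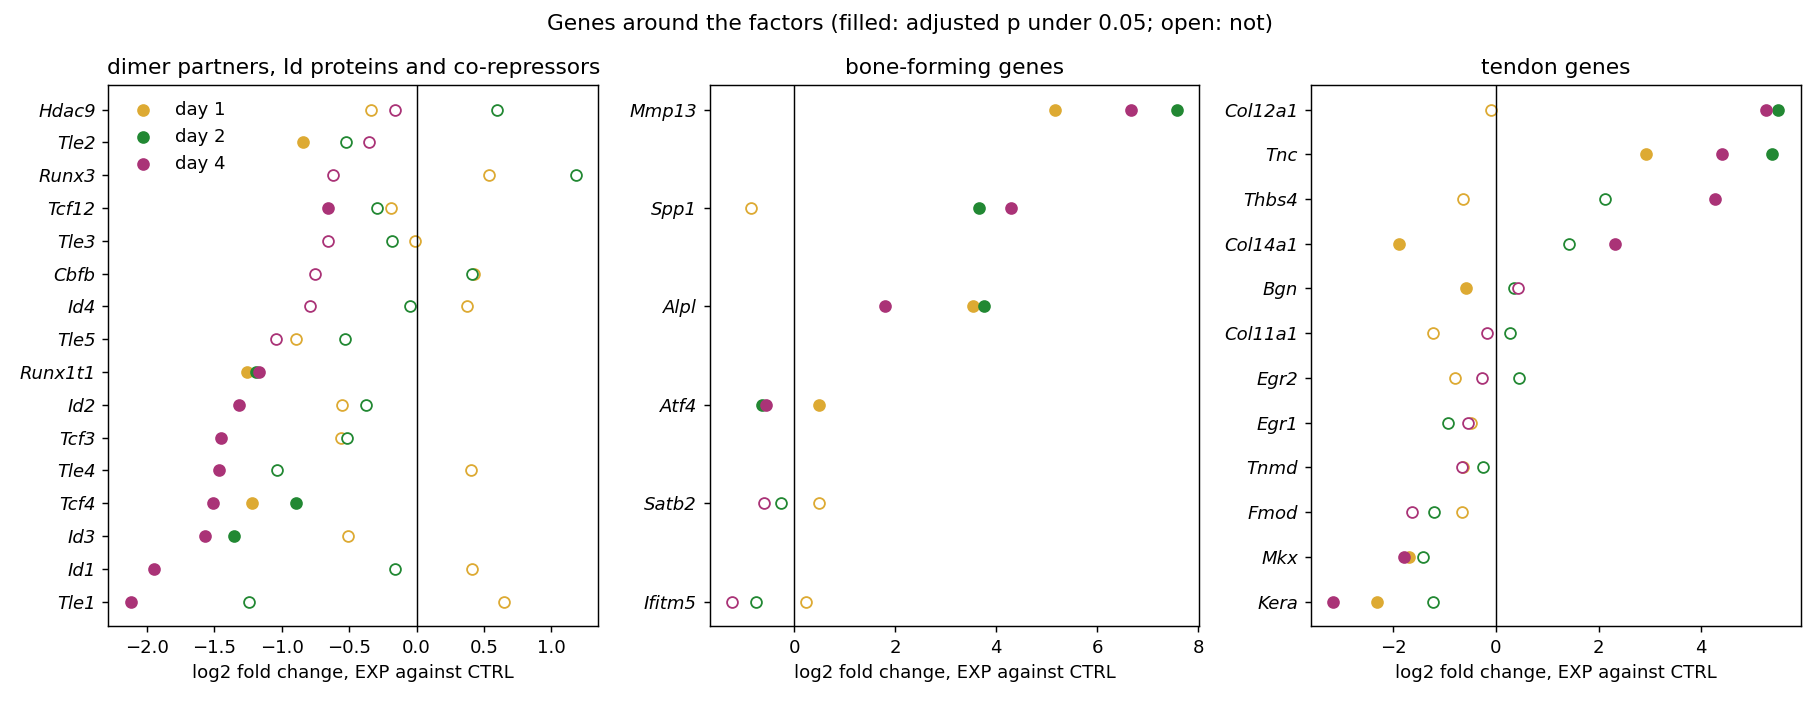
Log2 fold change of EXP against CTRL on days 1, 2 and 4 for the tested genes of the lists on partners and co-repressors, on bone and on tendon, filled where the adjusted p was under 0.05; tested genes averaging below 0.5 CPM are not drawn. In the partner list the filled points all lie left of 0, and in the bone list Mmp13, Spp1 and Alpl lie far to the right.

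Genes of bone formation, several of them direct targets of RUNX2, moved in both directions. Of 12 genes 8 were tested. On days 1, 2 and 4, 3, 3 and 3 were called higher, against 13.9%, 7.72% and 12.8% of all genes. Lower were 0, 1 and 1, against 14.7%, 5.71% and 9.66%. The list's median was 0.36, 2.15 and -0.14. Mmp13, a collagenase made by bone cells and by fibroblasts in wounds, rose from 0.846 ± 0.659 CPM (n = 4, SD) to 30.6 ± 14.6 CPM (n = 5, SD) on day 1 and from 0.813 ± 0.481 to 158 ± 90.5 CPM (n = 3 each, SD) on day 2. Its log2 fold changes were 5.16, 7.58 and 6.68 (adjusted p 0.000218, 0.000325 and 0.000242). Alpl, the alkaline phosphatase of mineralising tissue, rose by 3.53, 3.76 and 1.79 (adjusted p 5.5e-05, 0.000715 and 0.0155). Spp1, which encodes osteopontin, rose on day 2 (3.66, adjusted p 0.00138) and day 4 (4.30, adjusted p 0.000253). Atf4, a stress-response factor, was higher on day 1 (0.49, adjusted p 0.0365) and lower on days 2 and 4 (-0.63 and -0.56, adjusted p 0.0475 and 0.0441).

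The genes that define mature bone cells stayed near the limit. Sp7, the osteoblast factor downstream of Runx2, reached 13 counts at most and was at 0 in 11 libraries. The matrix genes Ibsp and Bglap had too few counts to test and were at 0 in 16 and 11 libraries, with single maxima of 109 and 16 counts, and so did Phex and Col10a1, with at most 16 and 7 counts.

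Tendon genes, several of them SCX targets, were all tested, 12 of 12. On days 1, 2 and 4, 1, 2 and 4 were called higher, against 13.9%, 7.72% and 12.8% of all genes, and 4, 0 and 2 lower, against 14.7%, 5.71% and 9.66%. The list's median was -0.66, 0.31 and -0.23. Tnc, a matrix protein of tendon and of healing tissue, rose by 2.92, 5.39 and 4.40 (adjusted p 0.015, 0.00457 and 0.00428). Col12a1 rose on day 2 (5.51, adjusted p 0.000458) and day 4 (5.26, adjusted p 0.000244), from 7.33 ± 0.80 CPM in CTRL to 333 ± 119 CPM in EXP on day 2 (n = 3 each, SD). Thbs4 rose on day 4 (4.26, adjusted p 0.00116). Mkx, a homeobox factor of tendon, fell on day 1 (-1.69, adjusted p 0.0151) and day 4 (-1.79, adjusted p 0.0357), as did Kera, a proteoglycan gene (-2.32 and -3.18, adjusted p 0.0226 and 0.0185). Col14a1, a collagen of the fibril surface, fell on day 1 (-1.88, adjusted p 0.00513) and rose on day 4 (2.32, adjusted p 0.00555). Tnc on day 4 spanned 393 to 11030 CPM within EXP and 86.6 to 441 CPM within CTRL, so that those groups overlapped.

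Among 40 other transcription factors of skin and limb mesenchyme, 33 were tested. On days 1, 2 and 4, 0, 2 and 5 were called higher, against 13.9%, 7.72% and 12.8% of all genes, and 9, 5 and 7 lower, against 14.7%, 5.71% and 9.66%. The list's median was -0.35, -0.21 and -0.33. Creb3l1, a factor that drives collagen secretion, fell on day 1 (-1.41, adjusted p 9.37e-05), day 2 (-1.31, adjusted p 0.0035) and day 4 (-0.75, adjusted p 0.0376), from 131 ± 31.1 CPM (n = 4, SD) to 49.1 ± 14.3 CPM (n = 5, SD) on day 1. Zfp423 and Ebf2, both known from adipocyte progenitors, fell on day 1 (-2.05 and -2.10, adjusted p 0.000237 and 0.000662), and Zfp423 also on day 2 (-1.45, adjusted p 0.0287). Osr2 fell on all 3 days (-0.99, -1.53 and -1.30; adjusted p 0.0019, 0.00111 and 0.00208) and Meox2 on days 1 and 2 (-1.23 and -1.48; adjusted p 0.0016 and 0.00524). Ebf1 (0.81, adjusted p 0.0153) and Foxp1 (1.41, adjusted p 0.0255) rose on day 2. On day 4 Foxp1 (2.27, adjusted p 0.000569), Ebf1 (0.72, adjusted p 0.0132), Sox9, the chondrogenic factor (2.36, adjusted p 0.00389), and Sox5 (1.64, adjusted p 0.00453) rose, while Zeb2 (-0.88, adjusted p 0.00247) and Msx2 (-2.50, adjusted p 0.00639) fell. Sox9 went from 7.44 ± 4.52 CPM (n = 4, SD) to 38.1 ± 20.2 CPM (n = 3, SD). Of 10 dermal papilla genes, 9 were tested, and 0, 1 and 0 were called higher and 1, 1 and 3 lower on days 1, 2 and 4, beside the same shares of all genes.

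As a description, the genes whose log2 CPM over the 22 libraries were most like those of a member were looked up among 9815 genes averaging at least 5 CPM. The points share library, depth and group, and no test was made. Twist1 was most like Fbxo33 (Pearson r 0.94), Cebpb (0.91), which encodes an inflammation-related factor, and Sirt1 (0.89). Runx1 was most like Prok2 (0.90), Uck2 and Myo1d (both 0.89), and Runx2 like Pcsk5 (0.92), Steap2 (0.91) and Prg4 (0.90), the lubricin gene. Tbx15 was most like Pkd1 (0.92), Atp13a2 (0.91) and Mxra7 (0.91), of which the last 2 belong to the 192 genes of the library split. H2afy and Icmt, the genes most like Tbx18 (both 0.82), belong to them as well, while Obsl1, the next (0.81), does not. Twist2 was most like Lrrfip2, E2f6 and Khdrbs1 (0.91, 0.91 and 0.91), Prrx1 like Dnajc9, Cdc25b and Brip1os (0.80, 0.79 and 0.78), Prrx2 like Lrig3, Maz and Cpox (0.85, 0.85 and 0.83) and En1 like Ulk2, Celf2 and Drap1 (0.86, 0.82 and 0.81). With group means removed, r was 0.463 to 0.821 for the Runx2 genes, 0.556 to 0.68 for Prrx1 and 0.682 to 0.694 for Runx1. It was 0.697 to 0.791 for En1, 0.767 to 0.841 for Tbx15 and 0.775 to 0.843 for Prrx2. For Tbx18 it was 0.783 to 0.818, for Twist1 0.812 to 0.911 and for Twist2 0.876 to 0.9.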

How the data were processed

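The authors deposited 1 table of raw counts, genes by the 22 libraries; 0 columns belonged to no labelled library. Per the labels' protocols, total RNA of sorted cells went into ultra-low-input paired-end Illumina libraries. Trimmomatic and the mm39 build appear in the submitters' processing notes; the aligner, counter, annotation and strand setting are not given in the sources used here. GENCODE M21 named 52081 of 55414 identifiers and gave exon lengths and overlaps. Its build differs from mm39, so no gene coordinates are printed.

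Counts were analysed in R 4.3.3 with edgeR 4.0.16: filterByExpr (minimum count 10, 17554 genes), TMM, and robust quasi-likelihood fits of a mean per group over all libraries (16 residual degrees of freedom), checked on simulated data, where many changes, large ones included, were missed at 3 against 3 libraries and a few calls were false. Alternatives used DESeq2 1.42.0, limma 3.58.1 voom, other scalings, filters and covariates, the replicate number as a block, and each library left out. The comparisons within a side of the library split were added after the data were seen. Intervals of fold changes come from the fit and cover the spread between libraries; the 3-count limit covers counting error only, since reads carry no molecular identifiers and are not independent molecules. No 2 libraries of a group looked like 1 deposited again (chi-square over its degrees of freedom 26.6 to 403).

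All 10 factors are named. Of 4 lists written by hand, up to 3 called genes per day and direction with the smallest p are named, and for each tested factor the 3 most similar genes. Members and lists were chosen with earlier results of these data known.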

Additional observations from a re-analysis of the deposited data

Results flagged for a closer look

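The effect of the expander differed between days for 2 of the 9 tested factors, against 8.82% of all genes. For Runx2 the log2 fold change was 0.41, 3.01 and 2.18 on days 1, 2 and 4 (joint edgeR adjusted p 0.0175), and for Twist1 it was 0.29, -0.94 and -1.35 (adjusted p 0.048). The Twist1 result was lost in 16 of 22 fits that each left out a library, and the Runx2 result in 0. Each of the 10 factors was also looked at in the 3 groups of 4 or 5 libraries for a single library standing apart from the rest, and 0 of these 30 sets of values held one.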

How the results depend on the processing

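Of the log2 fold changes of single factors under all alternatives, 382 kept direction and side of the threshold, 41 were no longer called, 9 became called and 27 changed sign. The calls of Runx1 on days 1 and 2 and of Runx2 on day 2 held in every fit run, and that of Runx2 on day 4 in all but the comparison within a side of the split. The count of factors called on day 1 was 1 without TMM and 1 within a side (1 to 3 leaving out a library, 1 without day 1 CTRL replicate 1). On day 2 it was 5 by limma voom (2 to 4, with 4 without day 2 EXP replicate 2). On day 4 it was 3 without TMM, with every gene fitted, with the split as a covariate, with that day's libraries alone and by voom, and 0 within a side (2 to 5, with 2 without day 4 EXP replicate 1). For the effect by day it was 1 without TMM, with every gene fitted and with the replicate block (1 to 3). For the change over days in EXP it was 2 with either the split or a keratinocyte score as a covariate and 4 by DESeq2 (1 to 3), and in CTRL it was 1 without TMM, with every gene fitted, with the keratinocyte score, with the replicate block, in that arm alone, by voom and by DESeq2 (0 to 1). Of the uncalled differences, Twist1 on day 2 became called with the split as a covariate, the replicate block (-0.99, adjusted p 0.0479) and voom, En1 on day 2 by voom, Tbx15 on day 2 by voom and from that day's libraries alone, and Runx1 on day 4 without TMM. The shares of all genes called also move. Day 1 had 2210 calls within a side against 5017. Day 2 had 4567 by voom and 4632 without TMM against 2359, and 891 and 1401 without EXP replicates 1 and 3 and 1465 and 1220 without CTRL replicates 1 and 2. Day 4 had 1128 from its own libraries and 1 within a side against 3943, and 1633 and 2001 without EXP replicates 1 and 2. The effect by day had 401 with the replicate block and 2606 by DESeq2 against 1549, and 898 without day 1 CTRL replicate 3, 951 without day 4 EXP replicate 2 and 2572 without day 4 EXP replicate 3. The change in EXP had 1432 with the replicate block and 1267 from that arm alone against 2502, and 1647 and 1367 without day 4 EXP replicates 1 and 2. The change in CTRL had 19 (replicate block) to 602 (voom) against 51, and 5 (without day 1 CTRL replicate 1) to 92 (without day 4 CTRL replicate 3). Same-numbered libraries deviated together by correlations of -0.066 to 0.164, so the numbers were not taken as pairs. With the replicate block 3, 3 and 4 factors were called on days 1, 2 and 4, against 3, 2 and 5 without it. The shares of all genes called with the block on those days are not given here, so these counts are not read against them.

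Sign changes concerned only uncalled differences. Without TMM they were 0.155 for Prrx2 on day 1, 0.44 for Prrx1, 0.0825 for Prrx2 and 0.0768 for Tbx18 on day 2, and 0.0785 for Tbx18 on day 4. With the split as a covariate they were 0.10 for Prrx2 on day 1 and, on day 4, -0.12 for Prrx1 and 0.25 for Tbx18. Within a side they were -0.16 for Twist1, 0.0355 for Prrx2 and 0.20 for Tbx18 on day 1 and -0.20 for Prrx1 and 0.57 for Tbx18 on day 4. On day 4 the replicate block gave -0.11 for Prrx1 and 0.17 for Tbx18, and voom -0.27 and 0.0635. The keratinocyte score gave -0.0849 for Twist2 on day 2. Leaving out a library, the ranges were -0.25 to 0.14 for Prrx2 on day 1, -0.12 to 0.17 for Twist2 on day 2, -0.34 to 0.21 for Prrx1 on day 4 and -0.54 to 0.053 for Tbx18 on day 4. The causes were not tested. Depth limits Scx, at 0 to 20 counts, and Runx2 in day 2 CTRL, at 8 to 23 counts.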
